A study of Mus musculus with 8 samples.

Results

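The genes that supply glycerol-3-phosphate and build triglyceride from it were examined in brown adipose tissue (BAT) of mice. The set holds 10 genes, namely Gk, Gpd1 and Pck1 for the supply of glycerol-3-phosphate, and Gpam, Agpat2, Agpat3, Lpin1, Lpin2, Dgat1 and Dgat2 for the steps that follow. A probe belonged to the set if the RefSeq transcript it was designed for is one of these genes. This match of probes to genes used no measured value, but the 10 genes were chosen with earlier results of these data known. This gave 12 of the 55681 probes on the array, with 2 probes each for Agpat2 and Lpin1 and 1 for each of the other 8 genes. All 12 probes were well above background on all 7 arrays with scanner values, so every gene of the set was tested.

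BAT was taken from male C57BL/6NCrSlc mice kept at 23 °C. They were operated on at 11 weeks of age, with either a sham procedure (Sham) or thoracic aortic constriction (TAC). TAC is a band around the aorta that loads the left ventricle with pressure. Sex, strain and housing are as the paper on this model describes for its wild-type mice, and its text does not report these arrays. The labels state an age of 13 weeks at collection, which fits the 2 weeks of follow-up named in the source name and the protocol, while the description line names 4 weeks. Each group had 4 mice with 1 one-colour Agilent array each, and no transgene or drug was named for either. Scanner intensities were used for 7 arrays (Sham 2 to 4 and TAC 1 to 4), and Sham 1 entered only through a table of scaled intensities of all 8 arrays. The 7 arrays lie on 1 slide with Sham in the first row and TAC in the second, so slide row and surgery cannot be told apart.

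Triglyceride is made in the endoplasmic reticulum from glycerol-3-phosphate and fatty acids activated with coenzyme A. Glycerol-3-phosphate comes from glucose through dihydroxyacetone phosphate (Gpd1), from pyruvate and lactate through glyceroneogenesis (Pck1), or from free glycerol (Gk), a route that is weak in white fat and known to be inducible in brown fat. Acyltransferases add the first fatty acid (Gpam) and the next (the AGPAT family), phosphatidate phosphatases (the lipins) remove the phosphate, and diacylglycerol acyltransferases (Dgat1 and Dgat2) add the last fatty acid. In brown adipocytes the triglyceride is stored in many small droplets and is broken down again for heat production.

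Promoter sequences are shown for Agpat2 and Agpat3, because these sister enzymes of the same step were the only members whose Sham and TAC arrays did not overlap on the 7 arrays as scaled here. With no scaling between arrays Agpat3 overlapped and Gpd1 did not. Each run is the 250 bases upstream of the RefSeq transcription start, 5′ to 3′ on the strand of the gene, in GRCm38.p6. The Agpat2 window is chr2:26604418-26604667 (minus strand) and the Agpat3 window is chr10:78351701-78351950 (minus strand). Capitals mark GGGCGG, the core of the GC box, on either strand.
Agpat2: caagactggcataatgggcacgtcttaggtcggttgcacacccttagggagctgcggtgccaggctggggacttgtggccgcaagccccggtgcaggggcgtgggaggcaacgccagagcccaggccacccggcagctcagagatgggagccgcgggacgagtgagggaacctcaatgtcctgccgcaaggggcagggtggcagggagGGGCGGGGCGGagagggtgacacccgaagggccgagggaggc
Agpat3: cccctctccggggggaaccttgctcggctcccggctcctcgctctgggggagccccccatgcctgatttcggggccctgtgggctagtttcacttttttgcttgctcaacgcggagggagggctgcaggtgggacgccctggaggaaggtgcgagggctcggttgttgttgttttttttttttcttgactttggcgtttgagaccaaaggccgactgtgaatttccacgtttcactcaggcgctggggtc
The Agpat2 window holds 2 copies of GGGCGG that share 1 base, at 42 to 37 and at 37 to 32 bases before the start, and the Agpat3 window holds none. GGGCGG occurs in 32.7% of the 32851 promoter windows of the same length in the table. The G and C content was 69.2% for Agpat2 and 59.6% for Agpat3. Windows were found for 7 of the 10 genes, 10 windows in all, and 6 short motifs were searched on both strands. CACGTG, the E-box, was found in a window of Gk and of Lpin2 (6.02% of all windows), and CCAAT in a window of Gpam and of Lpin2 (33.8%). TTACGTCA, a variant of the cyclic AMP response element, was found in the Pck1 window at 93 to 86 bases before the start (0.447% of all windows). GGGCGG was also found in windows of Pck1, Gpam, Lpin2 and Gk. TATAAA, the TATA box, and TGACGTCA, the full cyclic AMP response element, were in no window of the set, against 12.4% and 1.55% of all windows. These are matches of letters, and no binding was measured.

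Below, a level is log2 of the intensity minus the 75th percentile of its array, a difference is the level after TAC minus the level after Sham, and ± is a standard error from limma unless marked SD. Exact permutation tests are two-sided, with 35 possible splits of 7 arrays and 70 of 8, and cannot give a p below 0.0286. Levels of different probes are not on one scale and are not compared. Over all 33364 probes tested, 0 passed an adjusted p of 0.05 with limma and Benjamini-Hochberg adjustment (smallest adjusted p 0.0575). At an unadjusted p under 0.05, 2814 probes (8.43%) were lower and 1462 (4.38%) were higher after TAC. One-colour arrays of whole tissue cannot tell fewer cells of a type from less RNA per cell, and p-values measure the spread between the arrays, 1 per labelled mouse.

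One array, TAC 1, was unlike the rest. It lay at 89.6 on principal component 1 (39.3% of the variance), against -8.58 to 3.58 for the other TAC arrays and -32.6 to -20.3 for the Sham arrays. In the 8-array table Sham 1 lay at -3.16 on the same kind of axis, among TAC 2 to 4 (-7.07 to 4.39) and away from Sham 2 to 4 (-32.6 to -21). The differences of the 10 genes are therefore also given without TAC 1 and over the 8 arrays of the table.

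Of the 10 genes, 9 had a difference below 0 (55.8% of all probes did), and the median difference was -0.25, against -0.032 over all probes. Agpat2, the acyltransferase of the second step, was the 1 gene of the 10 with an unadjusted p under 0.05 (8.43% of all probes were lower by this criterion), and none was higher. In 2 of the 10, Agpat2 and Agpat3, every TAC array lay below every Sham array, as it did for 10.4% of all probes. In the 8-array table Agpat2 alone, 1 of 10, was lower by either criterion (9.56% of all probes at an unadjusted p under 0.05, and 6.29% with no overlap), and none was higher by either (4.65% and 3.53%). The counts of 1 and 2 of 10 lie near the shares of all probes, and no gene of the set passed the adjusted threshold. Without Sham 2, 5 of the 10 had no overlap (16.4% of all probes), and without Sham 3 none of the 10 had an unadjusted p under 0.05 (4.8% of all probes were lower). Without TAC 1, 7 of the 10 differences were below 0 and their median was -0.13.

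**Figure D1:**
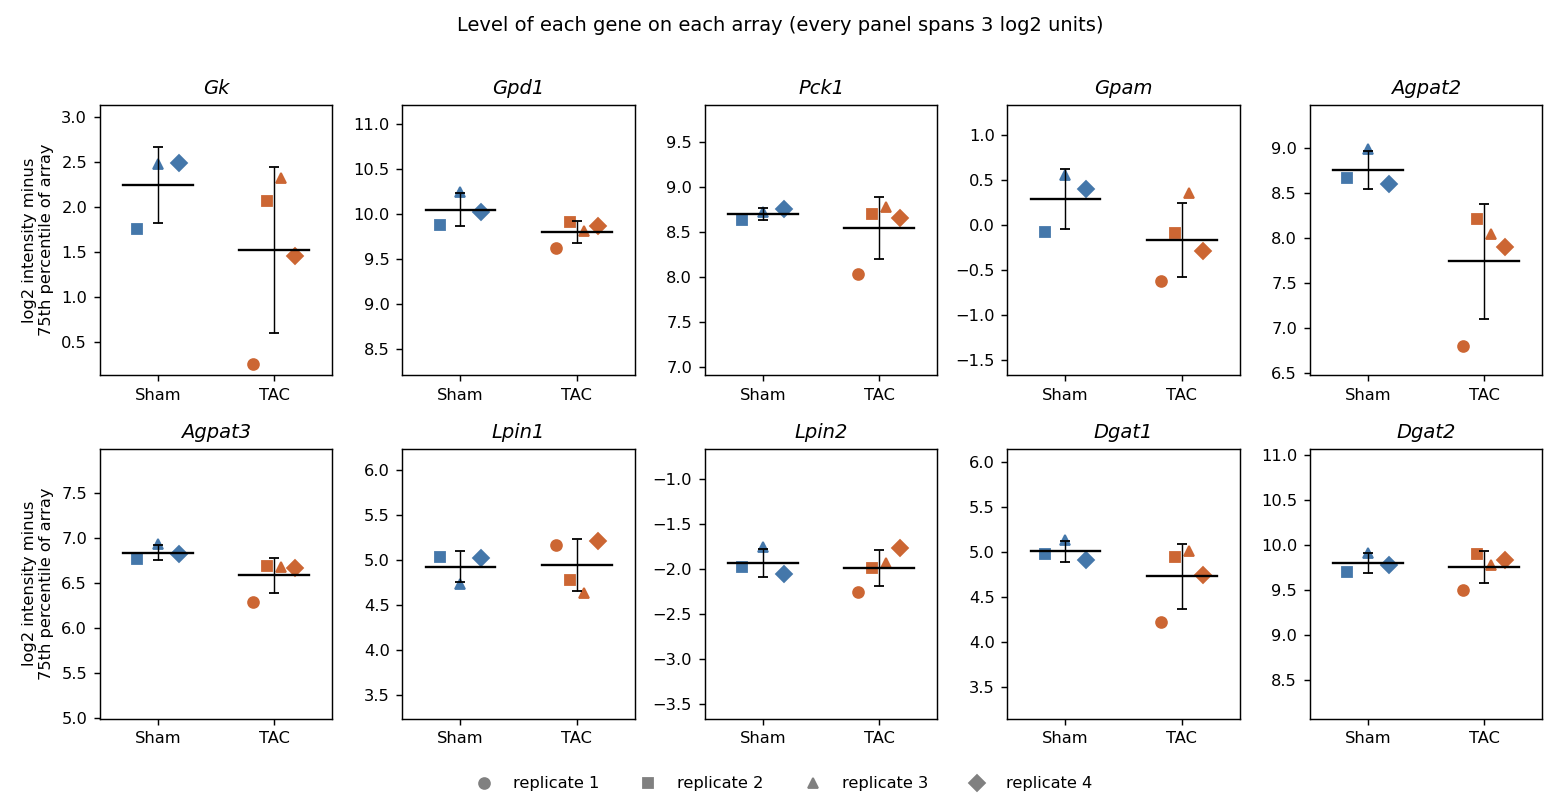
Level of each of the 10 genes (log2 intensity minus the 75th percentile of the array, vertical axis) on the 3 Sham and 4 TAC arrays, 1 point per array with its replicate number as symbol, bars for the mean and whiskers for the SD, and every panel 3 log2 units high. Agpat2 and Agpat3 are the panels in which no TAC point reaches a Sham point, and TAC 1 is the lowest TAC array in 9 of the 10 panels.

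Among the supply genes, glycerol kinase (Gk) had the widest spread. Its level was 1.75, 2.47 and 2.49 on Sham 2 to 4, and 0.25, 2.06, 2.32 and 1.45 on TAC 1 to 4. TAC 1 was far below all others, while TAC 2 and TAC 3 lay inside the Sham range. The difference was -0.72 ± 0.50 (95% interval -1.89 to 0.45, exact permutation p = 0.314, limma adjusted p = 0.560), and it was -0.29 without TAC 1. Sham 1 was also low, at 1.63 in the table against 1.95 to 2.68 for the other Sham arrays on that scale, and the difference over 8 arrays was -0.53 (95% interval -1.59 to 0.53).

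Gpd1, the cytosolic dehydrogenase that makes glycerol-3-phosphate from a glycolytic intermediate, varied little. Its level was 9.88, 10.25 and 10.03 on Sham 2 to 4, and 9.63, 9.91, 9.82 and 9.87 on TAC 1 to 4. The groups overlapped only through TAC 2, which lay above Sham 2. The difference was -0.25 ± 0.12 (95% interval -0.53 to 0.04, limma p = 0.0782, adjusted p = 0.444, exact permutation p = 0.0571). With no scaling between arrays the intensities of Gpd1 did not overlap, at 553301 to 567530 units on Sham and 463110 to 493833 units on TAC, and the difference was -0.23. Without TAC 1 the scaled difference was -0.19. None of the Gpd1 spots was marked as saturated. Over 8 arrays the difference was -0.21 (95% interval -0.46 to 0.05), with Sham 1 at 10.02 in the table and the TAC arrays at 9.82 to 10.09.

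For Pck1, the cytosolic enzyme that controls glyceroneogenesis, levels were 8.63, 8.72 and 8.75 on Sham 2 to 4, and 8.03, 8.70, 8.78 and 8.65 on TAC 1 to 4. TAC 2 and TAC 4 lay inside the Sham range, TAC 3 just above it and TAC 1 below it. The difference was -0.16 ± 0.19 (95% interval -0.60 to 0.28, exact permutation p = 0.771, limma adjusted p = 0.734). It was 0.01 without TAC 1, 0.00 with quantile normalization and -0.14 over 8 arrays, so its direction is not settled.

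Gpam, the mitochondrial acyltransferase that attaches the first fatty acid, gave levels of -0.08, 0.56 and 0.40 on Sham 2 to 4, and -0.62, -0.09, 0.36 and -0.29 on TAC 1 to 4. The groups overlapped through TAC 3. The difference was -0.45 ± 0.26 (95% interval -1.05 to 0.15, exact permutation p = 0.143, limma adjusted p = 0.493), and -0.29 without TAC 1. The table put Sham 1 at 0.20, above 3 of the TAC arrays and below TAC 3 at 0.55, and its difference over 8 arrays was -0.39 (95% interval -0.92 to 0.13).

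Agpat2 attaches the second fatty acid and makes phosphatidate, and its loss in people is known to cause a lipodystrophy with near absence of fat. By its brighter probe the level was 8.66, 8.99 and 8.60 on Sham 2 to 4, and 6.80, 8.21, 8.04 and 7.90 on TAC 1 to 4. Each TAC array was below each Sham array, with TAC 1 more than 1 log2 unit below the other TAC arrays. Group means were 8.75 ± 0.21 (SD, n = 3) and 7.74 ± 0.64 (SD, n = 4), a difference of -1.01 ± 0.34 (95% interval -1.81 to -0.22), or a ratio of 0.496. The p in limma was 0.0194 before and 0.319 after adjustment, and the exact permutation p was 0.0571.

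The dimmer Agpat2 probe gave 5.96, 6.17 and 5.85 on Sham 2 to 4, and 3.92, 5.30, 5.22 and 5.11 on TAC 1 to 4. This second probe ordered the 4 TAC arrays in the same way as the first. Its difference was -1.11 ± 0.34 (95% interval -1.91 to -0.31, limma p = 0.0133, adjusted p = 0.294, exact permutation p = 0.0286). Both probes read the same RNA samples and are not independent replicates.

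In the 8-array table, Sham 1 had an Agpat2 level of 8.82, beside 8.86, 9.18 and 8.79 for Sham 2 to 4 and 6.99, 8.39, 8.22 and 8.07 for TAC 1 to 4. Sham 1 took no part in the 7-array comparison and lay with the other Sham arrays. The genes were chosen with earlier results of these data known, so Sham 1 is not counted as an independent check. The difference over 8 arrays was -1.0 (95% interval -1.66 to -0.33, limma p = 0.00859, adjusted p = 0.239), and the exact permutation p was 0.0286, the smallest that 70 splits allow. Without TAC 1 the scanner values gave -0.70 (limma adjusted p = 0.193). Without Sham 3 they gave a difference of -0.89, the 1 setting in which the unadjusted p was not under 0.05. Across 23 alternative settings the Agpat2 difference was between -1.17 and -0.69, with adjusted p from 0.186 to 0.679.

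Agpat3, a related acyltransferase that is also known to act on lysophospholipids, had levels of 6.76, 6.93 and 6.82 on Sham 2 to 4, and 6.29, 6.69, 6.68 and 6.67 on TAC 1 to 4. TAC 2 to 4 lay together just below the lowest Sham array, and TAC 1 lay apart. The difference was -0.26 ± 0.12 (95% interval -0.55 to 0.03, limma p = 0.0758, adjusted p = 0.440, exact permutation p = 0.0286), and -0.16 without TAC 1. With no scaling between arrays the intensities of Agpat3 overlapped, at 55498 to 65557 units on Sham and 47259 to 56030 units on TAC, and the difference was -0.24. In the table Sham 1 was at 6.84 and TAC 2 and TAC 3 at 6.87 and 6.86, so the groups overlapped there, with a difference of -0.23 (95% interval -0.49 to 0.03, exact permutation p = 0.0857).

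The difference between 2 genes within an array is not moved by subtracting 1 value from the whole array, as the 75th percentile and median centring do, though quantile normalization can move it. These comparisons were chosen after the values were seen. Agpat2 minus Agpat3 was 1.90, 2.05 and 1.78 on Sham 2 to 4, and 0.51, 1.52, 1.36 and 1.23 on TAC 1 to 4. Every TAC value was below every Sham value, and the mean was lower by 0.75 after TAC (exact permutation p = 0.0571, also after adjustment over 3 such comparisons), or by 0.54 without TAC 1. In the table of 8 arrays it was lower by 0.77 (exact permutation p = 0.0286), and with quantile normalization by 0.68.

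Agpat2 minus the mean of 8 general adipocyte markers was 1.45, 1.71 and 1.48 on Sham 2 to 4, and -0.29, 0.99, 0.78 and 0.67 on TAC 1 to 4, a difference of -1.01 (exact permutation p = 0.0571), or -0.74 without TAC 1. Against 14 brown adipocyte markers, the value was 3.90, 4.00 and 3.82 on Sham 2 to 4, and 2.95, 3.59, 3.36 and 3.56 on TAC 1 to 4. Here the difference was -0.54 (exact permutation p = 0.0286, adjusted p = 0.0571 over the 3 comparisons), or -0.40 without TAC 1. It was -0.46 with quantile normalization and -0.59 with normexp background correction, with an exact permutation p of 0.0571 in both. Agpat2 was thus lower relative to each of these references on every TAC array, and by the smallest amount relative to the mean of the brown adipocyte markers. In that mean Elovl3 had a difference of -2.48 and Dio2 of -1.10, while the median difference over the 14 markers was -0.20. The order of the references was not tested with a median or without Elovl3 and Dio2.

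**Figure D2:**
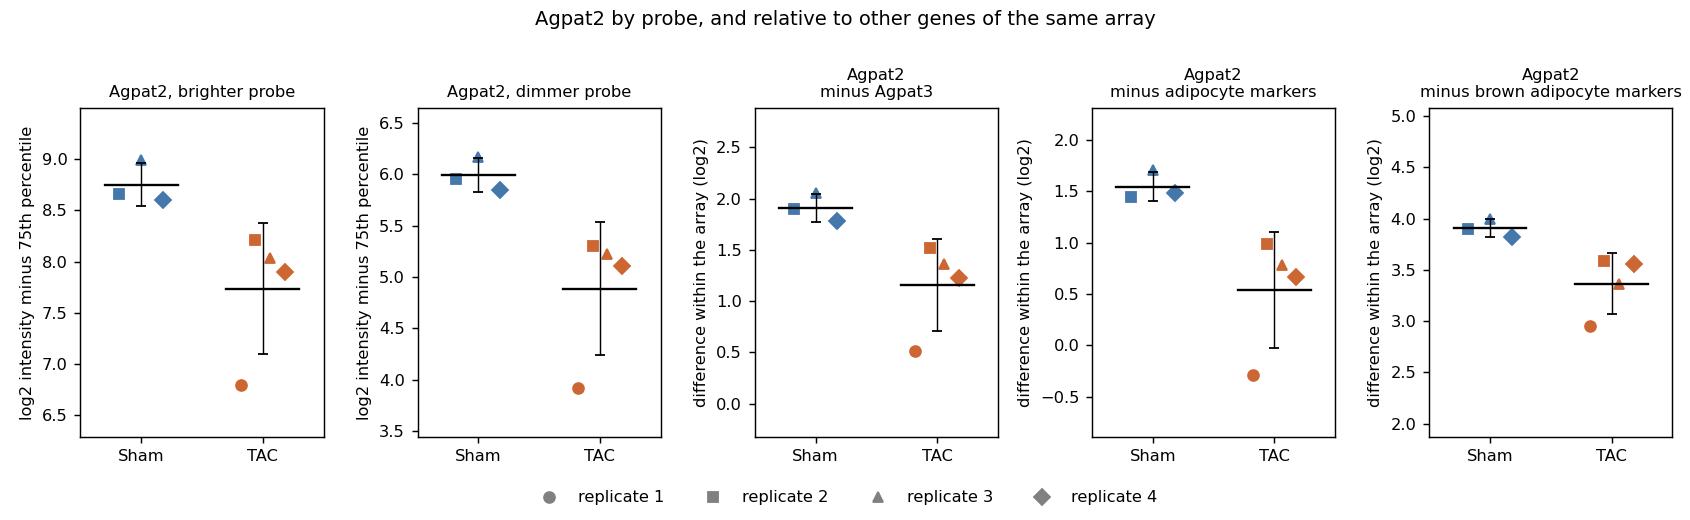
Agpat2 by its brighter and its dimmer probe (log2 intensity minus the 75th percentile, panels 1 and 2) and Agpat2 minus Agpat3, minus the adipocyte markers and minus the brown adipocyte markers within each array (log2 difference, panels 3 to 5). Points are arrays with the replicate number as symbol, bars are means and whiskers SDs over 3 Sham and 4 TAC arrays, and in all 5 panels the 4 TAC points lie below the 3 Sham points.

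Lpin1, a phosphatidate phosphatase that also acts as a transcriptional coactivator, gave levels of 5.03, 4.73 and 5.02 on Sham 2 to 4 and 5.17, 4.78, 4.63 and 5.21 on TAC 1 to 4 by its brighter probe. The groups were interleaved, and the difference was 0.02 ± 0.17 (95% interval -0.39 to 0.43, exact permutation p = 0.914, limma adjusted p = 0.965). Its dimmer probe, with intensities of 67.7 to 157 units, gave -0.29 ± 0.24 (exact permutation p = 0.371, limma adjusted p = 0.625). The 2 probes differed in sign, and neither passed the test. Without TAC 1 they gave -0.05 and -0.40, and over 8 arrays 0.11 and -0.24.

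Lpin2, a phosphatase of the same family, was measured at 125 to 153 units. Levels were -1.98, -1.76 and -2.06 on Sham 2 to 4 and -2.26, -1.99, -1.94 and -1.77 on TAC 1 to 4, again interleaved. The difference was -0.06 ± 0.14 (95% interval -0.39 to 0.27, exact permutation p = 0.743, limma adjusted p = 0.874), 0.03 without TAC 1 and -0.02 over 8 arrays.

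Dgat1 and Dgat2 catalyse the last step and are unrelated in sequence. Dgat1 had levels of 4.98, 5.13 and 4.91 on Sham 2 to 4, and 4.22, 4.95, 5.01 and 4.74 on TAC 1 to 4. TAC 2 and TAC 3 lay inside the Sham range, and the difference of -0.28 ± 0.20 (95% interval -0.74 to 0.19, exact permutation p = 0.257, limma adjusted p = 0.572) became -0.10 without TAC 1 and was -0.26 over 8 arrays.

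The level of Dgat2 was 9.70, 9.92 and 9.78 on Sham 2 to 4 and 9.50, 9.90, 9.78 and 9.84 on TAC 1 to 4. Except on TAC 1, every value after TAC was inside the Sham range. The difference was -0.05 ± 0.12 (95% interval -0.33 to 0.24, exact permutation p = 0.80, limma adjusted p = 0.892), and it was 0.04 without TAC 1, 0.10 with quantile normalization and -0.03 over 8 arrays.

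A further 28 genes of the pathway were looked at as a list, covering other sources and uses of glycerol-3-phosphate, other acyltransferases and phosphatases, monoacylglycerol acyltransferases, acyl-CoA synthetases and droplet formation. Of these, 26 were tested, because the glycerol channels Aqp3 and Aqp9 were not above background on enough arrays. The tested genes divided into 15 with a difference below 0 and 11 above, with a median of -0.07, and into 13 and 13 without TAC 1. At an unadjusted p under 0.05, 4 were lower (15.4%, against 8.43% of all probes) and 1 was higher (4.38% of all probes), and 0 passed the adjusted threshold. Without Sham 2 (6.6% of all probes lower) or without Sham 3 (4.8%), 2 were lower.

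Acsl5, which activates long-chain fatty acids with coenzyme A, gave 4.05, 4.25 and 3.84 on Sham 2 to 4, and 2.07, 3.13, 2.65 and 2.89 on TAC 1 to 4. All TAC arrays were below all Sham arrays, and the difference was -1.36 ± 0.25 (exact permutation p = 0.0286, limma adjusted p = 0.197), or -1.16 without TAC 1. Over 8 arrays the difference was -1.30 (limma adjusted p = 0.167). Acsl3, an enzyme of the same family found on growing lipid droplets, had a difference of -0.55 ± 0.23 (exact permutation p = 0.0857, limma adjusted p = 0.385), -0.37 without TAC 1 and -0.53 over 8 arrays.

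Gpd2, the mitochondrial dehydrogenase that oxidizes glycerol-3-phosphate and passes its electrons to the respiratory chain, is known to be abundant in brown fat. Its level was 5.54, 5.90 and 5.92 on Sham 2 to 4 and 4.63, 5.17, 4.91 and 5.19 on TAC 1 to 4. No TAC array reached the Sham range, and the difference was -0.81 ± 0.17 (exact permutation p = 0.0286, limma adjusted p = 0.197), or -0.70 without TAC 1. In the table Sham 1 stood at 5.28, inside the TAC range of 4.82 to 5.36, and the difference over 8 arrays was -0.65 (limma adjusted p = 0.257).

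Mogat1, which acylates monoacylglycerol and so reaches diacylglycerol without glycerol-3-phosphate, had levels of 0.40, 0.90 and 0.34 on Sham 2 to 4 and -2.49, -0.13, -0.55 and -0.50 on TAC 1 to 4. The groups did not overlap, and the difference was -1.47 ± 0.55 (exact permutation p = 0.0571, limma adjusted p = 0.353), or -0.94 without TAC 1 and -1.47 over 8 arrays. Gpd1l, a relative of Gpd1, was the 1 gene of the list that was higher at an unadjusted p under 0.05. It gave -1.77, -1.77 and -1.80 on Sham 2 to 4 and -1.60, -1.37, -1.42 and -1.57 on TAC 1 to 4, a difference of 0.29 ± 0.09 (exact permutation p = 0.0286, limma adjusted p = 0.296), or 0.33 without TAC 1 and 0.25 over 8 arrays.

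The other 21 tested genes of the list had an unadjusted p of 0.0571 or more. Among the 26, 5 had every TAC array below every Sham array (10.4% of all probes) and 1 had every TAC array above (5.58%). The list holds 4 other lysophosphatidate acyltransferases, which were named after their values were seen, as relatives of Agpat2. Agpat1, Agpat4 and Agpat5 had differences of -0.05, 0.14 and 0.10, each with an exact permutation p of 0.171 or more. Lclat1 had every TAC array below every Sham array, with 0.97, 0.88 and 0.89 on Sham 2 to 4 and 0.56, 0.75, 0.78 and 0.75 on TAC 1 to 4. Its difference was -0.20 ± 0.09 (exact permutation p = 0.0286, limma adjusted p = 0.402), and -0.21 over 8 arrays, again with no overlap (exact permutation p = 0.0286, limma adjusted p = 0.285). For Acsl6 the signal on all 4 TAC arrays was too near background, so its difference is not given. It is still counted among the 26 genes tested and among the 15 with a difference below 0.

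**Figure D3:**
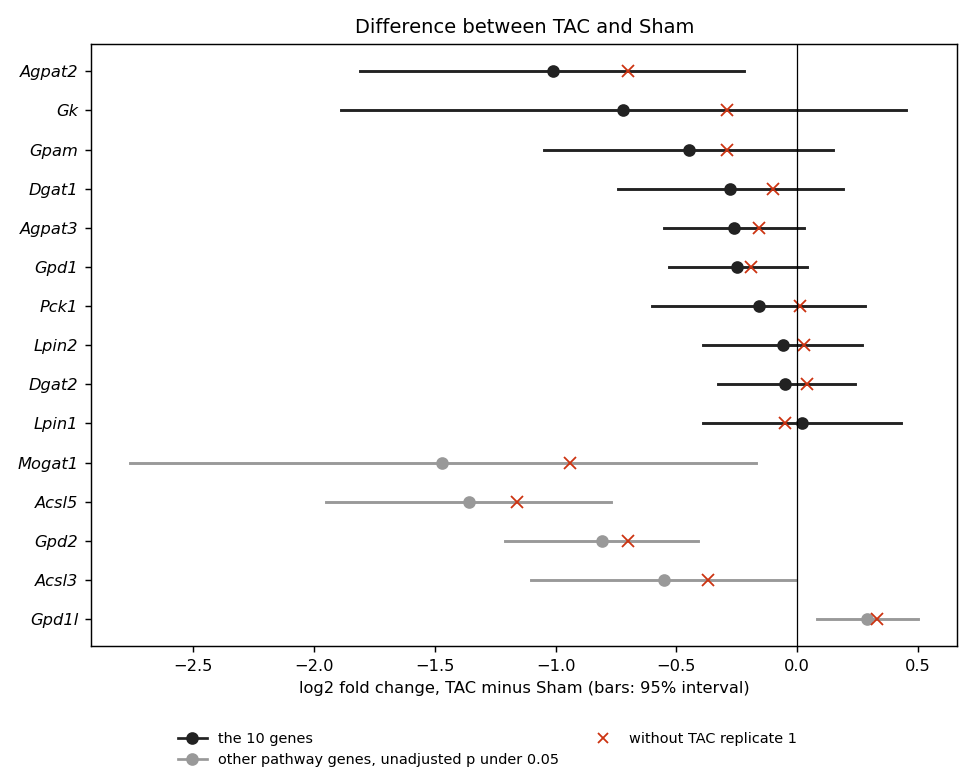
Difference in log2 level, TAC minus Sham (horizontal axis), with its 95% interval for the 10 genes (black) and for the 5 other pathway genes with an unadjusted p under 0.05 (grey), from 3 Sham and 4 TAC arrays, with crosses for the difference without TAC 1. Of the 10 genes, the interval of Agpat2 alone leaves out 0, and the crosses of Pck1, Lpin2, Dgat2 and Lpin1 lie on the other side of 0 from their points.

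Averaged per array, the 10 genes on TAC 1 were 0.77 below the Sham mean, and on TAC 2 to 4 0.16, 0.12 and 0.24 below it. Labelled as brown fat, all arrays had high signal for the brown adipocyte marker Ucp1, the uncoupling protein that makes heat, at levels of 9.40, 9.70 and 9.53 on Sham 2 to 4 and 8.37, 9.22, 9.17 and 8.97 on TAC 1 to 4.

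Of the 14 brown adipocyte markers, 14 had a difference below 0 (55.8% of all probes did). They were 12 with quantile normalization, 13 with no scaling and in the 8-array table, and 12 without TAC 1. An unadjusted p under 0.05 was found for 2 of the 14 (8.43% of all probes were lower by this criterion). Their mean was -1.0 relative to Sham on TAC 1, and -0.22, -0.17 and -0.50 on TAC 2 to 4. Of these markers Elovl3 lay furthest below Sham on TAC 1, at -3.78 against 1.57 to 2.06 on Sham 2 to 4. On the linear scale the summed level of the 14 markers, in multiples of the 75th percentile, was 3660 to 4500 on Sham and 2840 to 3890 on TAC. The 8 general adipocyte markers divided into 4 below and 4 above 0, with summed levels of 2300 to 2590 on Sham and 2210 to 2680 on TAC. Their shares moved with scaling, with 2 below 0 under quantile normalization.

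Skeletal muscle markers varied most between arrays, with all 14 above 0 in difference and no p under 0.05 among them. The summed level of the 14 muscle markers was 58.2 to 208 on Sham and 73 to 336 on TAC, with TAC 3 inside the Sham range. Of 8 macrophage markers 5 were above 0, with summed levels of 39.8 to 41.6 on Sham and 34.3 to 62.7 on TAC. TAC 1 had the highest macrophage value, a mean of 0.64 above Sham, and without it 6 of the 8 were below 0. Of 8 lymphocyte markers 5 were tested, and TAC 1 was also the highest array by their mean, 0.80 above Sham, against -0.33 to -0.09 on TAC 2 to 4. Cd3g, for example, was at -2.27 on TAC 1 and at -4.28 to -4.13 on TAC 2 to 4. Their summed level, 8.51 to 8.84 on Sham and 8.39 to 9.11 on TAC, is carried mostly by the bright Cd4 probe. The 5 endothelial markers summed to 32 to 33.9 on Sham and 32.5 to 34.7 on TAC, and the 4 erythroid markers tested summed to 378 to 658 and 312 to 525. The part of these cell types in the differences of the 10 genes was not tested, and the differences of Agpat2 without TAC 1 are given above.

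**Figure D4:**
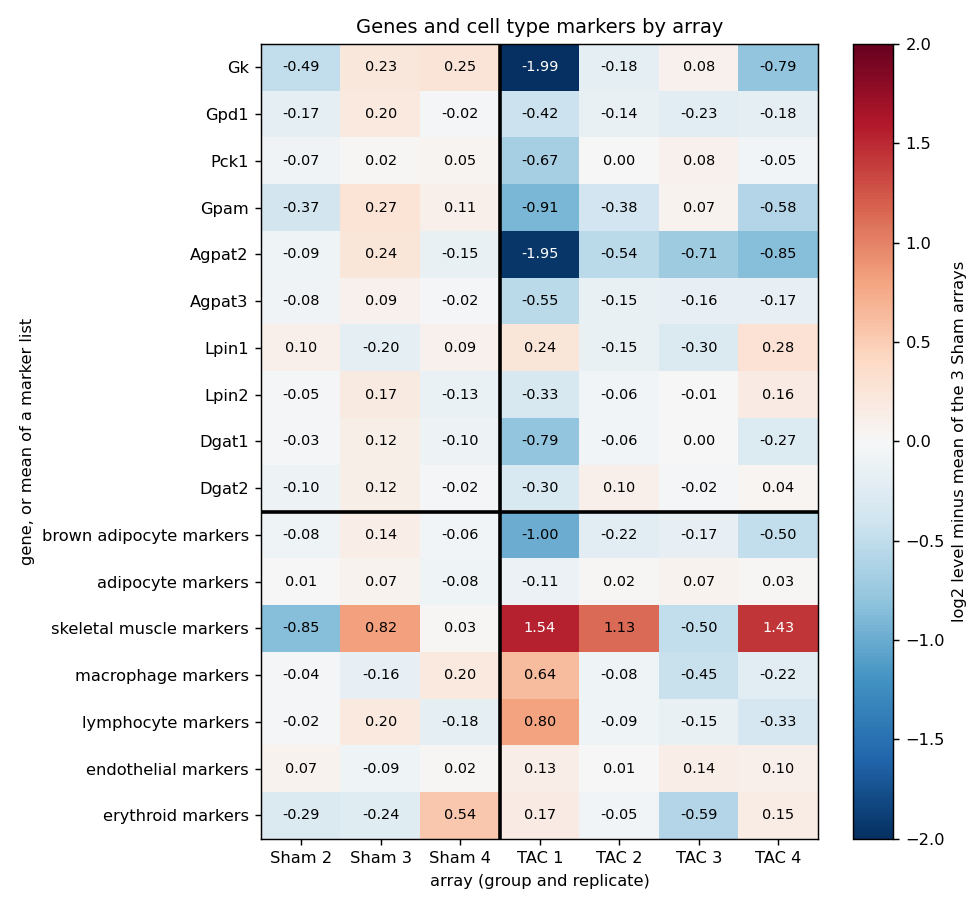
Level of each gene and mean of each marker list (rows) on each array (columns) as log2 difference from the mean of the 3 Sham arrays, blue for lower and red for higher, with values printed in the cells. Agpat2 is below the Sham mean on all 4 TAC arrays, by 0.54 to 1.95, and TAC 1 holds the lowest value of every gene but Lpin1.

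The arrays were also searched for the genes whose levels followed Agpat2, Agpat3 and Gpd1 most closely, by Pearson correlation over the 7 arrays among 14975 named genes. For Agpat2 these were Nme1 (r = 0.9978), Otop1 (r = 0.9972), which is also in the list of brown adipocyte markers, and Chchd3 (r = 0.9966). Agpat3 was followed by Fam149a (r = 0.9965), Adal (r = 0.9961) and Cdk2ap1 (r = 0.9957). Ppia (r = 0.9980), Arl6ip4 (r = 0.9945) and Chchd10 (r = 0.9924) were nearest to Gpd1. Such values are the highest among all of these genes over the same 7 arrays, which share TAC 1 as an extreme point, and they describe likeness only.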

How the data were processed

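Total RNA of BAT from 8 mice was labelled with Cy3 and hybridized to one-colour Agilent arrays. Per the labels, the authors extracted the spots with Agilent Feature Extraction 10.7.1.1. The deposited scanner files of 7 arrays hold background-subtracted intensity on a linear scale, not scaled between arrays. The deposited table of 8 arrays holds intensity already scaled to the 75th percentile of each array, as judged from its values. On the 7 arrays, at least 99.8% of the probes above 100 units lay within 1% of the scanner intensity times 1 constant. Dimmer probes and Sham 1 were not checked in this way. The 75th percentile of Sham 1 in the table was 1.003, against 1.002 to 1.004 for the others. Here, log2 intensity minus the 75th percentile of the array was compared between TAC and Sham in limma 3.58.1 under R 4.3.3 (lmFit, eBayes, two-sided, Benjamini-Hochberg over 33364 probes, 5 residual degrees of freedom, no block). Control and outlier spots (134 to 191 per array) were left out, and at most 1 spot per array was saturated, none of them of the 10 genes. A probe was tested with signal well above background on 3 or more of the 7 arrays and values on 2 or more arrays per group. The 75th percentile was 453.6 to 604.5 units, and 54.5% to 64.3% of the spots were well above background. The number of arrays limits the precision. The script was tested on simulated data in which the spread of each probe was capped and no array was outlying. That test does not cover an array such as TAC 1.

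Accessions were matched without versions to a RefSeq gene table of GRCm38.p6, which named 28026 probes (50.3%). The array was designed on another annotation, so the coordinates given are those of the RefSeq promoter table of that build. Where a gene has several probes the brightest one tested stands for it. All 10 genes and all of their probes are named, with those genes of the pathway list that had an unadjusted p under 0.05, and the 3 genes most like each of the 3 members with the smallest p. The genes, the lists and the alternatives were chosen with earlier results of these data known. Alternatives were quantile normalization, median centring, no scaling, normexp (offset 50), the table, 2 other filters on dim probes, outlier spots kept, an intensity trend, the methods' t-test, a replicate block, array weights, the probe mean per gene, and the omission of single arrays in turn. No scaling and the differences within an array were chosen after seeing the data.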

Additional observations from a re-analysis of the deposited data

Results flagged for a closer look

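In the 4 TAC arrays, TAC 1 stood apart for 2 of the 10 genes. For Pck1 its level of 8.03 lay below the 8.65 to 8.78 of the other TAC arrays, with a gap of 0.835 of the whole range of the group. For Agpat3 its level of 6.29 lay below 6.67 to 6.69, with a gap of 0.951. Dixon's 95% limit for a group of 4 was passed in both, and 20 groups (10 genes in Sham and in TAC) were looked at, of which chance passes about 1 in 20. These groups reuse the same arrays and are not independent of each other. Levels came from the table of 8 arrays for Sham and from the scanner values for TAC. Without TAC 1 the difference between TAC and Sham was 0.01 for Pck1 and -0.16 for Agpat3.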

How the results depend on the processing

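The median difference of the 10 genes stayed below 0 in each setting that was run. Of 230 values of single genes under the alternatives, 208 kept their sign, 22 turned, and none passed the adjusted threshold. Agpat2 was below 0 in all 23 of its settings, at an unadjusted p under 0.05 in 22 of them, the exception being the fit without Sham 3. Those that turned were close to 0. Pck1 was 0.00 with quantile normalization, 0.03 in the table without TAC 1 and -0.24 to 0.01 when single arrays were omitted. Lpin1 was -0.14 as the mean of its probes, -0.01 with median centring and -0.08 to 0.13 with each array left out. Lpin2 was 0.03 with array weights, 0.02 with normexp, 0.06 in the table without TAC 1 and -0.13 to 0.03 with each array left out. Dgat2 was 0.01 with array weights, 0.10 with quantile normalization, 0.06 in the table without TAC 1 and -0.09 to 0.04 with each array left out.

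For replicates 2 to 4, same-numbered arrays did not deviate together (r of 0.00171, -0.0255 and -0.021 in the scanner values, and 0.0203, 0.0564 and 0.0204 in the table). For replicate 1, which only the table covers in both groups, r was 0.269. The numbers were not taken to pair the samples. With the replicate block, scanner values gave -0.70 for Agpat2, 0.01 for Pck1, -0.05 for Lpin1, 0.03 for Lpin2 and 0.04 for Dgat2. Among the scanner values replicate 1 has no Sham array, so TAC 1 adds nothing to these differences, which equal those without TAC 1. The 2 settings are still counted apart among the 23. The replicate block in the table of 8 arrays gave 3 of the 10 genes lower at an unadjusted p under 0.05 (Gpam, Agpat2 and Agpat3, against 10.4% of all probes). There, 6 other pathway genes were lower and 2 higher (4.73% of all probes were higher).

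Genes of the set lower at an unadjusted p under 0.05 numbered 1 (8.43% of all probes). They numbered 3 with an intensity trend (8.76%) or normexp (8.02%), in both Gpd1, Agpat2 and Agpat3. With quantile normalization they numbered 2 (8.43%). When single arrays were omitted they numbered 0 to 2 (0 without Sham 3, 4.8%, and 2 without Sham 2, 6.6%, or TAC 3, 7.9%). Genes with every TAC array below every Sham array numbered 2 (10.4% of all probes). They numbered 3 with normexp (9.41%) or quantile normalization (10%), in both Gpd1, Agpat2 and Agpat3. With no scaling they numbered 2 (6.86%), Gpd1 and Agpat2. In the table of 8 arrays (6.29%) and in the table without TAC 1 (8.25%) they numbered 1. With each array left out they numbered 2 to 5 (12.6% to 16.4%, with 5 without Sham 2). Other pathway genes higher at an unadjusted p under 0.05 numbered 1 (4.38% of all probes). They numbered 2 with the filter on every array (5.23%), an intensity trend (4.91%) or normexp (4.48%), and 0 with no scaling (1.76%). With each array left out they numbered 1 to 2 (2.68% to 4.68%). Other pathway genes lower numbered 4 (8.43%). They numbered 5 with an intensity trend (8.76%), normexp (8.02%), quantile normalization (8.43%) and each of the 3 tables (8.64% to 9.68%). With array weights (9.46%), no filter (6.05%), the methods' t-test (7.75%) and the replicate block over scanner values (7.44%) they numbered 3. With each array left out they numbered 2 to 4 (2 without Sham 2, 6.6%, or Sham 3, 4.8%). Over all probes, 0 were lower past the adjusted threshold, but 1 with array weights, median centring or normexp, 4 with no scaling and 0 to 1 with each array left out, and 0 were higher, but 0 to 7 with each array left out (7 without TAC 4). The methods' t-test had 1602 probes higher and 2587 lower at an unadjusted p under 0.05, and 0 after Benjamini-Hochberg adjustment. At an unadjusted p under 0.05, median centring had 986 higher and 3073 lower, and no scaling 588 and 1951. The causes of these shifts were not tested.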
